A study of Homo sapiens with 32 samples.

Results

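The vehicle cultures of SK-N-BE(2), an established human neuroblastoma line with amplified MYCN, were compared between 3 h and 6 h after ethanol vehicle was added, with no cannabidiol (CBD) present. All samples labelled vehicle at these times were taken, which gave 8 of the 32 RNA-Seq samples in the series, 4 at each time. The series measured polyA RNA from cells given 20 µM CBD or vehicle for 3, 6, 12 or 24 h, with 4 replicates per treatment and time. All groups were of the same line, plated in wells and left to attach overnight before treatment, and both treatments left the cells in 0.1% ethanol. The 12 h and 24 h vehicle samples and the 3 h and 6 h CBD samples are used here only to place the change. A single line was studied, nothing in the labels says whether the replicates were plated on separate days, and p-values therefore measure the spread between these samples. No untreated culture or vehicle culture at 0 h was analysed here, so the effect of ethanol, time in culture, time of day and harvest cannot be told apart.

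Freshly handled cultures change over hours as oxygen, nutrients and secreted factors shift and as the cells recover from the disturbance. Hypoxia-inducible factors raise glycolytic enzymes, collagen prolyl hydroxylases and the angiogenic factor VEGFA when oxygen falls. HSF1 raises cytosolic chaperones on unfolded protein, and the unfolded protein response does so for chaperones of the endoplasmic reticulum, while BMP signals through SMAD proteins keep the ID genes on, which hold back differentiation.

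Values are FPKM, read fragments scaled to the exon length of the gene and to the mapped reads of the sample, as deposited. Differences are in log2(FPKM + 1) from limma over all 8 groups, and a gene was called at a Benjamini-Hochberg adjusted p under 0.01. Of 22610 entries, 12621 with a mean of at least 1 FPKM over the 32 samples were tested. FPKM do not state read depth, but relative depth, read from the smallest steps of low genes, lay between 0.932 and 1.11 in the 8 samples and did not separate the times (exact permutation p = 0.571, two-sided). The median FPKM of a sample over all entries did separate them, at 1.62 to 1.66 at 3 h and 1.69 to 1.74 at 6 h. Correlations of log2 values between replicates, taken across genes, were 0.958 to 0.966 at 3 h and 0.954 to 0.959 at 6 h. All 12 adrenergic neuroblastoma markers averaged at least 1 FPKM at both times, and none of 6 blood and 6 endothelial markers did. Of 10 mesenchymal markers 4 reached 1 FPKM, with THY1 highest at a mean of 92.8 FPKM at 3 h and 88.9 at 6 h. Of 9 keratinocyte or epithelial markers 2 reached it, with KRT10 highest at a mean of 7.84 FPKM at 3 h and 7.55 at 6 h. Of 8 Schwann or glial markers 1 reached it, PMP22, at a mean of 36.97 FPKM at 3 h and 38.59 at 6 h.

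The upstream sequences of 7 genes called higher from the chaperone, unfolded protein response and hypoxia lists are shown. All 7 hold a motif searched for, so they do not represent their lists, in which other called genes lacked the motif (shares below). Each is the 250 bases before the RefSeq start of the gene (RefSeq, GRCh38.p14), and each has 1 exact match in hg19, given here with its strand. The capitals in the first 3 mark the heat shock element core GAANNTTC or its other phase TTCNNGAA, which overlap in HSPA8, at chr6:31783070-31783319 (plus strand), chr6:31795265-31795514 (plus strand) and chr11:122932845-122933094 (minus strand).
HSPA1A: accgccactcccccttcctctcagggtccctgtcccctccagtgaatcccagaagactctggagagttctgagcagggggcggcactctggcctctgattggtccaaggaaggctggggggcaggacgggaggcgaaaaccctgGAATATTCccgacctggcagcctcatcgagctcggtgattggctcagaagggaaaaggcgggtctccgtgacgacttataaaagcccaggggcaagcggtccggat
HSPA1B: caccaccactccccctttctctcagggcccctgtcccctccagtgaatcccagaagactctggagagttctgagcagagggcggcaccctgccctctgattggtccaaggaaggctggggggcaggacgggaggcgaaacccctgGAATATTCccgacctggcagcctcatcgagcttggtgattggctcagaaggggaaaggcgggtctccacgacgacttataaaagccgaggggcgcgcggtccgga
HSPA8: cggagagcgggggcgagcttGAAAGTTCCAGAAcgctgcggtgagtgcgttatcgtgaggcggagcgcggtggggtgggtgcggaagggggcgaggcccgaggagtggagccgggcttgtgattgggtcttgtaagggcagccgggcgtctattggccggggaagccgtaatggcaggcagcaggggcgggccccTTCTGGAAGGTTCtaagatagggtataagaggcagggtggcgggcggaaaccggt
For HSPA5 at chr9:128003623-128003872 (minus strand) they mark the endoplasmic reticulum stress element, CCAAT and CCACG with 9 bases between them.
HSPA5: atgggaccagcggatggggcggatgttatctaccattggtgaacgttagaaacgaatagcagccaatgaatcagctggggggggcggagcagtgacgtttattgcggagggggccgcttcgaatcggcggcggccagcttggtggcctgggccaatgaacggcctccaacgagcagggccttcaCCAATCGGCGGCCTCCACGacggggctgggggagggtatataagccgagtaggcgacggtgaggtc
For P4HA1 at chr10:74856625-74856874 (minus strand), BNIP3 at chr10:133795428-133795677 (minus strand) and ANKRD37 at chr4:186317745-186317994 (plus strand) they mark ACGTG and GCGTG, the hypoxia response element core, on either strand (CACGT and CACGC on the strand printed).
P4HA1: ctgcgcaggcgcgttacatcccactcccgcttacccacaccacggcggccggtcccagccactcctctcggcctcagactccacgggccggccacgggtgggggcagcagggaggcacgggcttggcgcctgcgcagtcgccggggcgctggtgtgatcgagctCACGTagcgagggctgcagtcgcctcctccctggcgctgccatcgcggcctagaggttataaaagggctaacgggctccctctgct
BNIP3: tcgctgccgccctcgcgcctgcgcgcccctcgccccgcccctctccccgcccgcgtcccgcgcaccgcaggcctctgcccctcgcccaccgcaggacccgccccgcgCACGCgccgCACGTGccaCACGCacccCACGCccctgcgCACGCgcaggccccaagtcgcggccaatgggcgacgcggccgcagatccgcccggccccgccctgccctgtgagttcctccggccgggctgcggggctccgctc
ANKRD37: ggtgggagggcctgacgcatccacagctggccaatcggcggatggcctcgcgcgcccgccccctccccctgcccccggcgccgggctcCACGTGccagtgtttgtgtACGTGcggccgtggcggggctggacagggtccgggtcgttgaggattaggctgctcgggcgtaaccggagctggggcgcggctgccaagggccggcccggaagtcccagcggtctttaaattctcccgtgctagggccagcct
Each motif was searched on both strands. GAANNTTC was held by 5 of 9 chaperone genes that rose, HSPA1A, HSPA1B, HSPA1L, HSPA8 and DNAJA1, by 5.85% of all 27305 promoter windows and by 3.84% of the 9032 windows of genes tested. The HSPA1A and HSPA1B windows are near-identical, with the match 106 and 105 bases before the start, so these matches are not independent. TTCNNGAA was held by HSPA8 alone of the 9 chaperone genes, by 6.72% of all windows and by 4.98% of those of genes tested. The stress element was held by HSPA5, HSP90B1 and CALR, 3 of the 7 unfolded protein response genes that rose, by 0.0806% of all windows and by 0.122% of those of genes tested. ACGTG was held by 4 of 8 hypoxia-inducible genes that rose and had a window, the 3 printed and DDIT4, against 18.7% of all windows and 24.3% of those of genes tested. GCGTG was held by 3 of the same 8 (37.5%), by 31.9% of all windows and by 47.1% of those of genes tested, a share above that of the 8. The palindrome CACGTG reads as ACGTG on both strands. The motifs searched for the BMP, metal response and cAMP lists were in none of their called genes with a window. GGCGCC, a BMP-responsive SMAD element, was held by 0 of 4 BMP and TGF-beta targets that fell and by 26.7% of windows of genes tested. TGCGCNC, the metal response element core, was held by 0 of 2 metal response genes that fell (27.5% of those windows). TGACGTCA, the cAMP response element, was held by 0 of 4 RGS and cAMP genes that rose (3.17%). These are matches of letters only. The HSPA1A and HSPA1B windows end where the annotated genes begin, those of HSPA5, P4HA1 and BNIP3 run into the annotated 5′ end of their own gene, and those of HSPA8 and ANKRD37 lie within it.

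Between 3 h and 6 h, 1196 entries were called, 9.48% of those tested, with 790 (6.26%) higher and 406 (3.22%) lower at 6 h. Most of the changes were small. The median absolute log2 difference of the called entries was 0.15, and only 9 rose and 1 fell by 0.5 or more. The balance of directions depended on scale. Of the calls 66.1% were higher, against 40.8% after scaling by median ratios, which moved the median of all entries by only 0.020 on the log2 scale (512 higher and 744 lower), 49.0% after quantile normalization and 46.3% after a correction for GC content and length (653 higher and 757 lower), while 76.0% of 391 calls were higher with only the vehicle samples fitted. Among the third of genes richest in GC 8.29% were called higher and 1.20% lower, and among the third poorest in GC 2.74% and 5.15%. Without replicate 2 at 3 h 743 entries were called (512 higher, 231 lower), and the count lower was 268 without replicate 1 at 3 h and 246 without replicate 1 at 6 h. In bulk RNA a change in some cells and a smaller change in all cells cannot be told apart, nor can fewer cells of a type and less RNA per cell. The samples of the 2 times did not overlap for 22.7% of entries tested, with 6 h above 3 h for 14.8% and below for 7.88%. Of the 825 short RNA and LOC entries tested, 8 were called, and they are only counted. Of the 9 that rose by 0.5 or more, 1 was a short RNA, and the others were SLC16A3, DDIT4, NDUFA4L2, HSPA1A, HSPA1B, VEGFA, HSPA5 and RGS4.

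**Figure D1:**
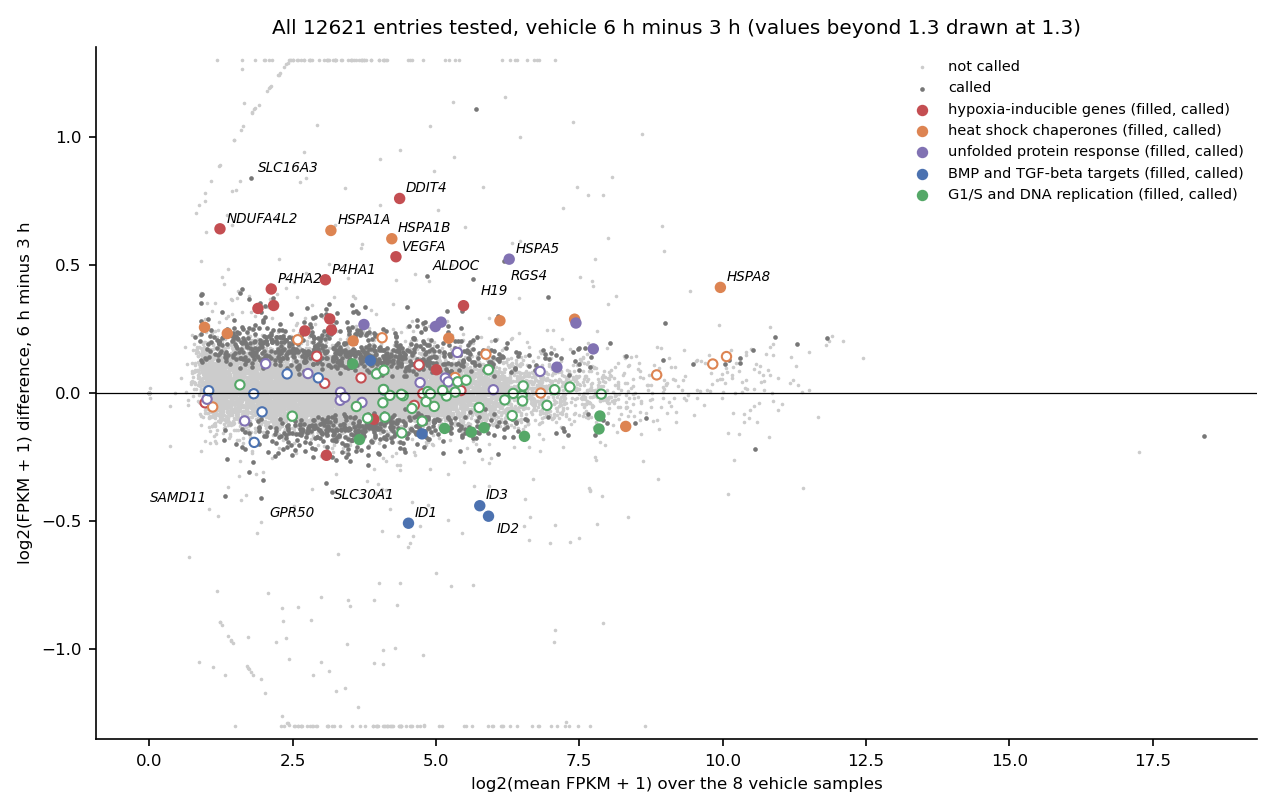
Each point is 1 of the 12621 entries tested, with log2(mean FPKM + 1) of the 8 vehicle samples on the x axis and the log2(FPKM + 1) difference, 6 h minus 3 h, on the y axis. Dark grey points are called, coloured circles are list members (filled where called), and 149 uncalled values beyond 1.3 in either direction are drawn at 1.3. Called genes mostly lie within 0.25 of 0, with SLC16A3 at 0.84 as the highest named gene (the called point above it is a short RNA) and ID1 at -0.51 as the lowest.

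The lists of hypoxia-inducible genes, heat shock chaperones, glycolytic enzymes and unfolded protein response genes held, with a list of 9 arrestins and MLXIPL targets, the highest shares of calls, against 6.26% of all entries called higher. The lists and their members were chosen with earlier results of these data known, so these shares describe the lists and test nothing. Some lists share members, and PDK1 counts in both the hypoxia and the glycolytic list. Of 22 hypoxia-inducible genes tested, 12 rose and 2 fell, with a median log2 difference of 0.19. Of 19 chaperones 9 rose and 1 fell, with a median of 0.21. Of 23 glycolytic genes 9 rose and none fell (median 0.081), and of 21 unfolded protein response genes 7 rose and none fell (median 0.076). The median over all entries tested was 0.014. BMP and TGF-beta targets leaned the other way, with 4 of 12 lower and 1 higher against 3.22% of all entries called lower.

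**Figure D2:**
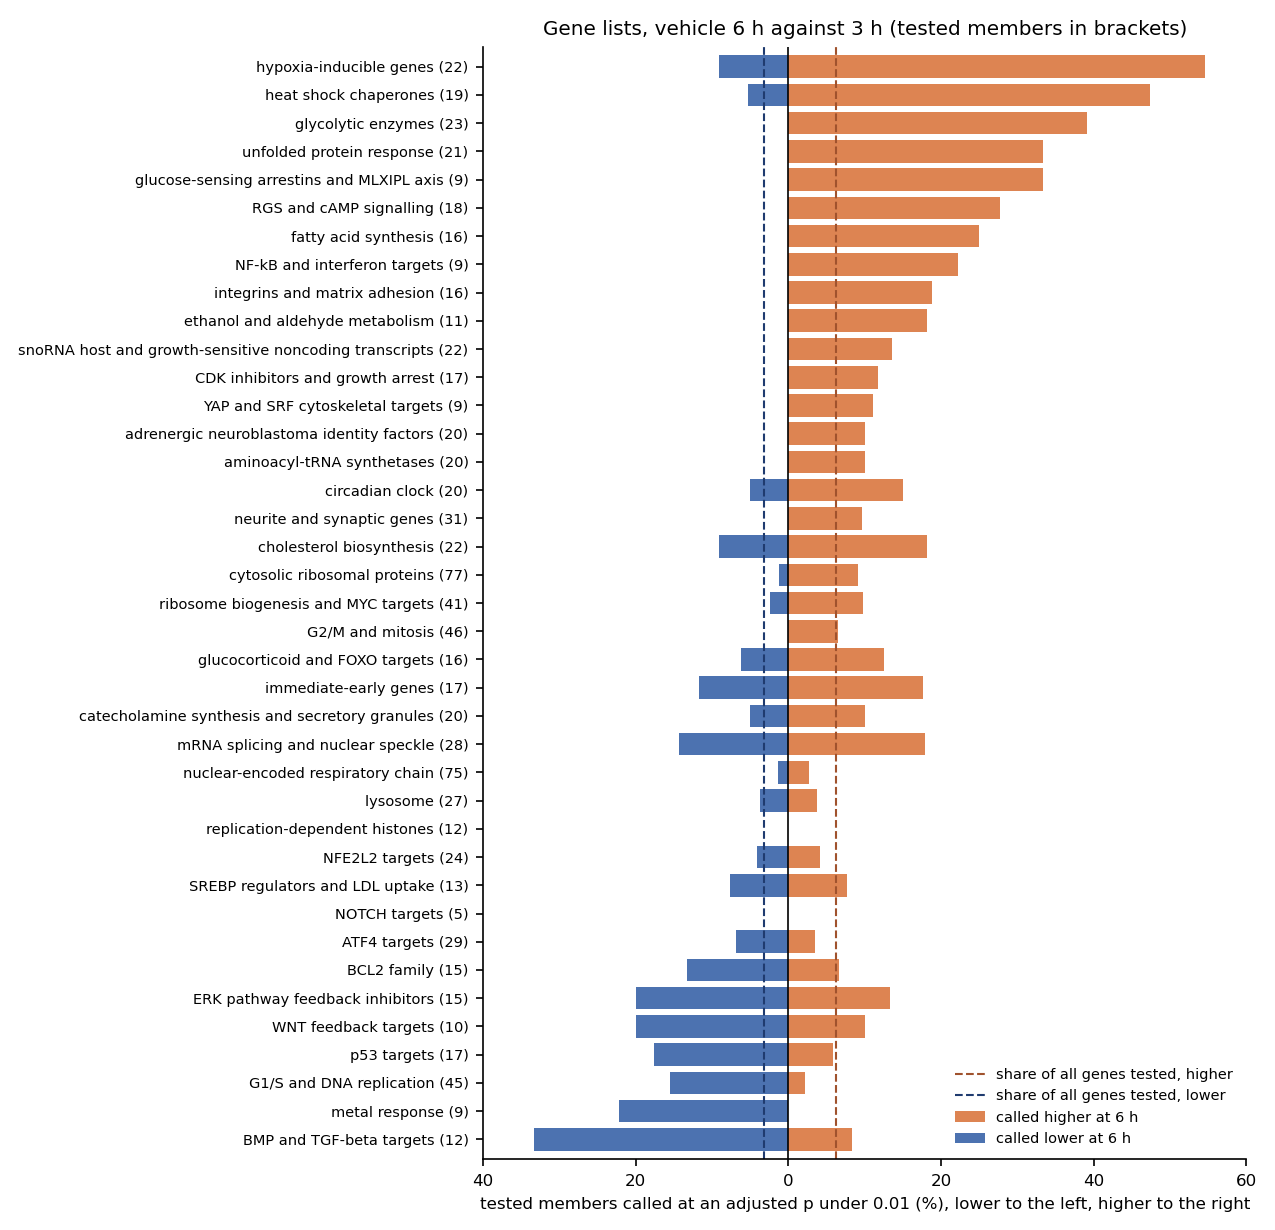
Bars give the percent of tested members of each of 39 gene lists called higher (to the right) or lower (to the left) at 6 h against 3 h in vehicle, with the number tested in brackets. Dashed lines mark the shares over all entries, 6.26% higher and 3.22% lower. Hypoxia-inducible genes reach 54.5% higher, and BMP and TGF-beta targets reach 33.3% lower.

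SLC16A3, the lactate exporter MCT4 (hg19 chr17:80175810-80219005), had the largest rise of the named genes. Replicates 1 to 4, in which order values are given throughout, held 1.34, 1.58, 1.26 and 1.55 FPKM at 3 h and 2.11, 3.71, 4.69 and 3.26 FPKM at 6 h, a ratio of means of 2.41 (log2 difference 0.84, SE 0.13, adjusted p = 6.57e-05). Every 6 h sample was above every 3 h sample, and replicate 1 at 6 h lay nearest to the 3 h range. DDIT4 (chr10:74033678-74035794), a stress-induced inhibitor of mTORC1, held 13.6, 13.2, 14.4 and 15.6 FPKM at 3 h and 17.9, 27.3, 30.4 and 24.8 FPKM at 6 h (log2 difference 0.76, SE 0.15, adjusted p = 0.000918), with no overlap and again with replicate 1 lowest at 6 h. VEGFA (chr6:43737921-43754224), the vascular growth factor, went from 14.2, 15.2, 15.2 and 15.8 FPKM to 18.5, 23.5, 24.9 and 22.7 FPKM (log2 difference 0.53, SE 0.07, adjusted p = 1.36e-05). The groups did not overlap, and the order of the 6 h samples was the same as for SLC16A3 at both ends.

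Collagen prolyl hydroxylases rose as a pair. P4HA1, the catalytic subunit shown above with ACGTG before its start, averaged 6.13 ± 0.423 FPKM (SD, n = 4) at 3 h and 8.70 ± 0.905 FPKM (SD, n = 4) at 6 h (log2 difference 0.44, SE 0.061, adjusted p = 2.54e-05). P4HA2, its paralog, averaged 2.76 ± 0.126 FPKM (SD, n = 4) and 3.98 ± 0.0871 FPKM (SD, n = 4), with a tight 6 h group and no overlap (log2 difference 0.41, SE 0.036, adjusted p = 3.65e-08). BNIP3, a mitochondrial outer membrane protein that promotes mitophagy, went from 38.4 ± 1.85 to 49.0 ± 4.12 FPKM (SD, n = 4, log2 difference 0.34, SE 0.061, adjusted p = 0.000362). PDK1, the kinase that closes pyruvate dehydrogenase, rose as well (log2 difference 0.29, adjusted p = 0.00107). NDUFA4L2, which lowers respiratory chain activity, held 0.824, 0.716, 0.662 and 1.09 FPKM at 3 h and 1.08, 1.95, 2.59 and 1.91 FPKM at 6 h (log2 difference 0.64, SE 0.16, adjusted p = 0.00719). Replicate 1 at 6 h lay within the 3 h range, and the call was lost in 6 of the 8 fits that left out 1 sample. NDRG1, a differentiation-related gene, overlapped by the same sample, from 2.95 ± 0.148 to 4.05 ± 0.758 FPKM (SD, n = 4, log2 difference 0.34, SE 0.079, adjusted p = 0.00338, lost in 3 of the 8).

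Within the glycolytic list, ALDOC, the brain isoform of aldolase, held 21.8, 24.0, 23.4 and 23.2 FPKM at 3 h and 28.7, 33.4, 33.7 and 32.7 FPKM at 6 h (log2 difference 0.46, SE 0.043, adjusted p = 1.25e-07). All 6 h samples stood clear of the 3 h samples. HK2, a mitochondria-bound hexokinase, rose from 9.26 ± 0.222 to 12.0 ± 0.970 FPKM (SD, n = 4, log2 difference 0.34, SE 0.051, adjusted p = 6.57e-05), and smaller rises were called for HK1, PFKP, PFKFB3, PFKFB4 and PKM, with log2 differences of 0.11, 0.17, 0.16, 0.32 and 0.081. The change was not shared by the whole pathway or list. LDHA (log2 difference -0.069), PGK1 (0.065), ENO1 (0.052), GAPDH (0.031), the glucose transporter SLC2A1 (-0.0019) and ADM, a vasoactive peptide (0.0097), were not called, and their log2 differences stand in brackets. EGLN3, an oxygen-sensing prolyl hydroxylase, and ERO1A, an oxidase of the endoplasmic reticulum, fell by 0.24 and 0.10 on the log2 scale, calls lost in 2 and 6 of the 8 fits that left out 1 sample. The PKM call was lost in 6 of them and the PFKFB4 call in 1.

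The 4 samples at 6 h were not alike for these genes. Over the 20 hypoxia-inducible or glycolytic genes called higher, replicate 1 was the lowest 6 h sample for 16 and replicate 3 the highest for 14, a feature chosen for description after the values were seen. Over all 790 entries called higher, replicate 1 was lowest for 30.0% and replicate 3 highest for 22.0%. The median over all 22 hypoxia-inducible genes, set against the 3 h mean, was 0.06, 0.19, 0.28 and 0.20 on the log2 scale in replicates 1 to 4 at 6 h. For the chaperones the same medians were 0.18, 0.16, 0.17 and 0.23. The order of samples was uneven in other lists too. Among the 9 chaperones called higher, replicate 3 was the lowest 6 h sample for 5 and replicate 1 the highest for 4. Among the 7 unfolded protein response genes called higher, replicate 2 was lowest for 4 and replicate 1 highest for 5. The hypoxia count fell from 12 to 7 without replicate 2 at 3 h, to 6 without replicate 3 at 6 h and to 7 without replicate 4 at 6 h, and 6 of the 12 genes kept their call in all 8 fits that left out 1 sample. With only the 8 vehicle samples in the fit, 1 of 22 hypoxia-inducible genes was called higher, against 12 with all groups. Of 23 glycolytic genes 1 was called higher there, against 9. Over all entries 297 were called higher there, against 790. The cause of this loss was not tested.

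Cytosolic chaperones of the HSP70 family rose with little spread. HSPA1A (chr6:31783320-31785723), the stress-inducible HSP70, held 5.93, 5.79, 6.32 and 6.16 FPKM at 3 h and 9.80, 10.1, 9.81 and 10.1 FPKM at 6 h, a ratio of means of 1.64 (log2 difference 0.63, SE 0.043, adjusted p = 2.82e-10). HSPA1B, its near-identical neighbour, held 14.4, 13.0, 14.3 and 14.04 FPKM and 21.6, 22.2, 20.6 and 22.2 FPKM (log2 difference 0.60, SE 0.04, adjusted p = 2.82e-10). For both, the 6 h samples formed a narrow band well above the 3 h samples, though reads from these copies may have been divided between them, so their separate levels are uncertain. HSPA8, the constitutive HSC70 and far higher in FPKM, held 862, 808, 861 and 888 FPKM at 3 h and 1159, 1104, 1138 and 1148 FPKM at 6 h (log2 difference 0.41, SE 0.035, adjusted p = 2.33e-08), again without overlap.

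The co-chaperones DNAJA1, DNAJB1 and BAG3, the exchange factor HSPH1 and the HSP70 relatives HSPA1L and HSPA2 completed the group, HSPA1L being so close in sequence and position to HSPA1A that its value is also uncertain. DNAJB1, which delivers clients to HSP70, averaged 61.7 ± 2.54 FPKM (SD, n = 4) at 3 h and 75.2 ± 1.11 FPKM (SD, n = 4) at 6 h (log2 difference 0.28, SE 0.029, adjusted p = 5.28e-07). HSPH1, an HSP110 exchange factor, had a log2 difference of 0.21 (adjusted p = 0.00111), and BAG3, which links HSP70 to autophagy, one of 0.20 (adjusted p = 0.00381). HSPE1, the mitochondrial HSP10, was the one member to fall, by 0.13 on the log2 scale (adjusted p = 0.00338), a call lost without replicate 1 at 3 h (adjusted p = 0.0184) or replicate 2 at 6 h (0.0104). HSP90AA1 (0.11), HSP90AB1 (0.14), HSPD1 (0.071) and HSF1 (0.061) were not called, with log2 differences given in brackets. Of the 9 rises 6 held in all 8 fits that left out 1 sample, and with only the vehicle samples fitted 5 of 19 chaperones were called higher.

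Folding factors of the endoplasmic reticulum formed the third group. HSPA5 (BiP, hg19 chr9:127997132-128003661), the HSP70 of this compartment, held 63.5, 59.4, 63.6 and 64.3 FPKM at 3 h and 92.1, 88.7, 90.4 and 90.8 FPKM at 6 h (log2 difference 0.52, SE 0.045, adjusted p = 3.59e-08). Replicate 2 was the lowest sample at both times, and the groups were far apart. PDIA4, a disulfide isomerase, rose from 28.0 ± 0.821 to 33.7 ± 0.527 FPKM (SD, n = 4, log2 difference 0.26, SE 0.025, adjusted p = 1.49e-07), and CALR, a calcium-binding lectin chaperone, from 201 ± 3.40 to 226 ± 3.81 FPKM (SD, n = 4, log2 difference 0.17, SE 0.02, adjusted p = 3.47e-06). MANF (0.28), HSP90B1 (0.27), SDF2L1 (0.27) and PDIA6 (0.10) also rose, log2 differences in brackets. The regulators ERN1 (-0.024), ATF6 (-0.017) and XBP1 (0.16) and the degradation genes HERPUD1 (0.041), EDEM1 (-0.11) and SEL1L (0.0031) were not called. The count of 7 became 4 under median-ratio scaling and 3 with only the vehicle samples fitted. Among 29 ATF4 targets, which belong to the translational arm of stress signalling, 1 rose (3.45%, DDIT4, counted above) and 2 fell (6.90%). Of all entries 6.26% were called higher and 3.22% lower. The 2 that fell were the amino acid transporters SLC3A2 (log2 difference -0.24) and SLC7A1 (-0.18), and neither call held in all 8 fits that left out 1 sample.

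**Figure D3:**
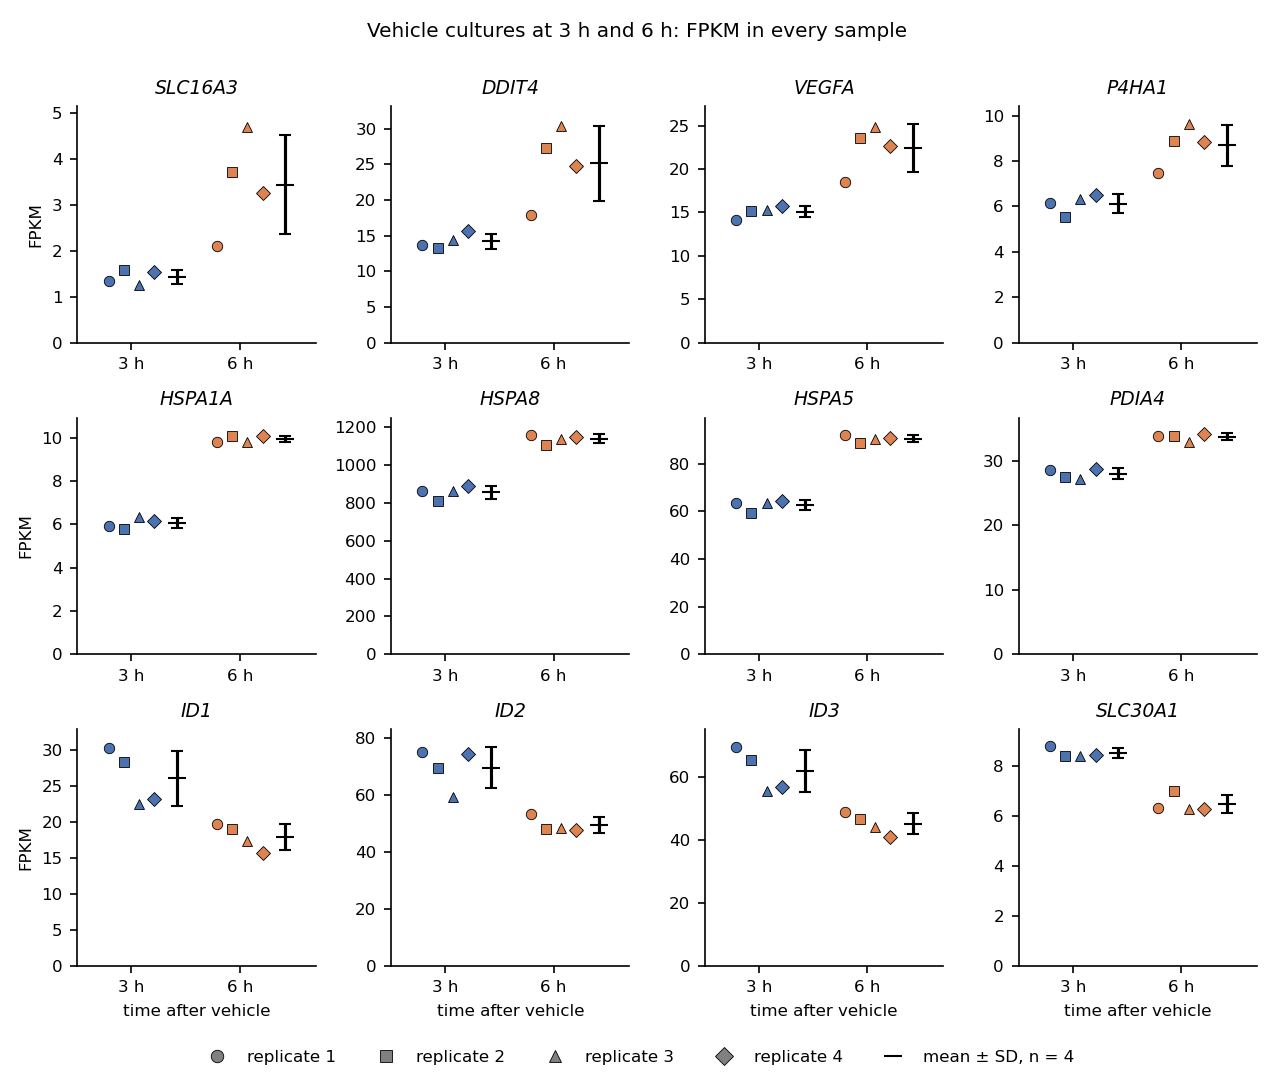
FPKM of 12 genes in each vehicle sample at 3 h (blue) and 6 h (orange), with a symbol for each replicate and the mean ± SD (n = 4) to the right of each group. The chaperones HSPA1A, HSPA8, HSPA5 and PDIA4 show tight groups, SLC16A3, DDIT4, VEGFA and P4HA1 spread at 6 h with replicate 1 lowest, and ID1, ID2, ID3 and SLC30A1 are lower in every 6 h sample than in any 3 h sample.

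Other large rises fell outside these groups. RGS4, which shortens signalling by Gq and Gi proteins, held 54.3, 59.6, 58.7 and 62.8 FPKM at 3 h and 67.8, 87.2, 101 and 85.1 FPKM at 6 h (log2 difference 0.52, SE 0.081, adjusted p = 9.43e-05), with no overlap and replicate 1 lowest at 6 h. It was 1 of 5 genes that rose among 18 of the RGS and cAMP list (27.8%, against 6.26% of all entries called higher), with none lower. The others were RGS10 and RGS16, of the same family, the cAMP phosphodiesterase PDE4B and the small GTPase GEM, of which GEM went from 18.8 ± 0.648 to 24.0 ± 0.551 FPKM (SD, n = 4, log2 difference 0.34, SE 0.044, adjusted p = 1.1e-05). This count became 3 without replicate 1 at 3 h, replicate 1 at 6 h or replicate 4 at 6 h, and 2 with only the vehicle samples fitted.

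The imprinted neighbours on chromosome 11 rose together. H19, a maternally expressed noncoding RNA, held 40.5, 43.8, 38.5 and 41.4 FPKM at 3 h and 46.8, 60.2, 66.8 and 53.1 FPKM at 6 h (log2 difference 0.45, SE 0.082, adjusted p = 0.000482), and IGF2, the paternally expressed growth factor beside it, was lower in level and averaged 0.628 ± 0.0673 and 1.14 ± 0.239 FPKM (SD, n = 4, log2 difference 0.39, SE 0.071, adjusted p = 0.000428). The samples of neither gene overlapped, but the IGF2 call was lost under quantile normalization (adjusted p = 0.0446). MEG3, another imprinted noncoding RNA, rose from 106 ± 3.92 to 138 ± 7.24 FPKM (SD, n = 4, log2 difference 0.38, SE 0.061, adjusted p = 0.000139), and NEAT1, the scaffold of paraspeckles, from 37.8 ± 0.927 to 47.5 ± 1.26 FPKM (SD, n = 4, log2 difference 0.32, SE 0.063, adjusted p = 0.000928). Of the 22 noncoding transcripts in their list, H19, MEG3 and NEAT1 were the 3 called (13.6%, against 6.26% of all entries called higher) and none fell. TPPP3, a tubulin-binding protein, and TNNT2, a troponin best known from heart muscle, rose from low levels of 1.64 and 1.59 FPKM, by log2 differences of 0.41 and 0.39 (adjusted p = 0.00038 and 0.000369).

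The inhibitors of DNA binding led the falls. ID1 (hg19 chr20:30193086-30194318) held 30.3, 28.2, 22.4 and 23.2 FPKM at 3 h and 19.7, 19.01, 17.3 and 15.7 FPKM at 6 h, a ratio of means of 0.69 (log2 difference -0.51, SE 0.11, adjusted p = 0.00181). ID2 (chr2:8818975-8824591) held 75.1, 69.4, 59.3 and 74.2 FPKM and 53.4, 48.0, 48.3 and 47.8 FPKM (log2 difference -0.48, SE 0.076, adjusted p = 0.000113). ID3 (chr1:23884417-23885992) held 69.3, 65.3, 55.5 and 56.7 FPKM and 48.8, 46.5, 44.1 and 41.0 FPKM (log2 difference -0.44, SE 0.083, adjusted p = 0.000595). In all 3 genes every 6 h sample was below every 3 h sample, and the 3 h samples spread more than the 6 h samples. The ID1 call was lost without replicate 1 at 3 h, the highest sample (adjusted p = 0.0107). SMAD9, a receptor-regulated SMAD of the BMP branch, fell from 27.6 ± 1.04 to 24.6 ± 0.698 FPKM (SD, n = 4, log2 difference -0.16, SE 0.028, adjusted p = 0.000345), and ATOH8, a helix-loop-helix factor outside the list, from 2.72 ± 0.220 to 2.00 ± 0.151 FPKM (SD, n = 4, log2 difference -0.31, SE 0.051, adjusted p = 0.00016). ID4 (log2 difference 0.0091), the feedback inhibitor SMAD7 (-0.0028) and BAMBI (-0.19) were not called, and LTBP1, which stores TGF-beta in the matrix, rose (0.13, adjusted p = 0.000559). With only the vehicle samples fitted, none of the 12 targets was called, and limma gave ID1 an adjusted p of 0.0259 there.

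GPR50, an orphan receptor related to melatonin receptors, held 3.51, 3.41, 3.25 and 3.38 FPKM at 3 h and 2.09, 2.72, 2.21 and 2.22 FPKM at 6 h (log2 difference -0.41, SE 0.063, adjusted p = 8.62e-05), without overlap. SLC30A1, the zinc exporter of the plasma membrane, held 8.78, 8.37, 8.41 and 8.42 FPKM and 6.33, 6.99, 6.25 and 6.25 FPKM (log2 difference -0.35, SE 0.037, adjusted p = 5.62e-07). Its 3 h samples were nearly equal, and all 6 h samples were below them. SLC30A1 is induced by zinc through MTF1, which also fell (log2 difference -0.11, adjusted p = 0.00797, lost in 7 of the 8 fits that left out 1 sample), while no metallothionein was called in vehicle. SGK1, a kinase induced by serum and glucocorticoids, fell from 2.83 ± 0.315 to 2.17 ± 0.180 FPKM (SD, n = 4, log2 difference -0.27, SE 0.046, adjusted p = 0.000224).

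DQX1, a helicase-like gene, SAMD11 and UNC5B, a netrin receptor, were lower at 6 h by 0.38, 0.40 and 0.28 on the log2 scale (adjusted p = 8.83e-05, 0.00136 and 0.000648). MFSD5 (log2 difference -0.27), FAM167A (-0.26), ISLR2 (-0.26) and CHPF2 (-0.25) completed the 15 largest falls with no overlap. The MFSD5 call was lost in 7 of the 8 fits that left out 1 sample, with adjusted p of 0.0138 to 0.0395. ISLR2 was lost without replicate 1 at 3 h (0.0144) or replicate 4 at 6 h (0.0145), and CHPF2 without replicate 2 at 3 h (0.0152), replicate 1 at 6 h (0.0127) or replicate 4 at 6 h (0.0114).

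Immediate-early genes and their neighbours moved in both directions. EGR1, a zinc finger factor induced by growth signals, held 3.49, 3.52, 3.21 and 3.37 FPKM at 3 h and 2.46, 2.64, 2.32 and 2.47 FPKM at 6 h (log2 difference -0.34, SE 0.091, adjusted p = 0.00963). The samples did not overlap, but the adjusted p lay so near the threshold that the call was lost in each of the 8 fits without 1 sample (adjusted p = 0.0143 to 0.0306). JUN, an AP-1 subunit, rose from 22.2 ± 0.805 to 26.8 ± 0.905 FPKM (SD, n = 4, log2 difference 0.26, SE 0.055, adjusted p = 0.00176). Over the 17 immediate-early genes tested 3 rose (JUN, ARC, KLF10) and 2 fell (EGR1 and the antiapoptotic MCL1). Over 15 feedback and target genes of the ERK pathway 2 rose (DUSP10, PHLDA1) and 3 fell (SPRED2, ETV4, ETV5). Of all entries 6.26% were called higher and 3.22% lower. None of the 3 falls of the ERK list held in all 8 fits that left out 1 sample. Their count was 0 without replicate 1 at 3 h and 1 without replicate 2 at 3 h, replicate 3 at 6 h or replicate 4 at 6 h. The medians of these lists, 0.0016 and -0.023 on the log2 scale, were near the 0.014 of all entries.

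Some genes of S phase were slightly lower at 6 h. Of 45 G1/S and DNA replication genes 7 fell (15.6%, against 3.22% of all entries called lower) and 1 rose. CDC25A, which activates CDK2, averaged 12.5 ± 0.380 FPKM (SD, n = 4) at 3 h and 10.9 ± 0.477 FPKM (SD, n = 4) at 6 h (log2 difference -0.18, SE 0.03, adjusted p = 0.000192). CDC6, a licensing factor, fell by 0.15 on the log2 scale (adjusted p = 0.000192), RRM2, a subunit of ribonucleotide reductase, by 0.17 (adjusted p = 0.00185) and CCND1 (cyclin D1) by 0.14 (adjusted p = 0.00156). The list's median was only -0.011, and its count of falls was 4 without replicate 1 at 3 h and 1 with only the vehicle samples fitted. Of 46 G2/M genes 3 rose (AURKB, KIF2C, PRC1) and none fell, 6.52% against the background of 6.26%, and the 3 became 1 without replicate 2 at 3 h, replicate 1 at 6 h or replicate 4 at 6 h.

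Splicing factors moved in both directions. The serine/arginine-rich factors SRSF2, SRSF5 and SRSF6 and the helicase DDX5 fell, with SRSF6 at 67.0 ± 0.905 FPKM (SD, n = 4) at 3 h and 59.7 ± 0.468 FPKM (SD, n = 4) at 6 h (log2 difference -0.16, SE 0.026, adjusted p = 0.000119). The kinases CLK2 and CLK3, which phosphorylate such factors, rose together with TRA2A, RBM5 and LUC7L, and CLK3 went from 16.9 ± 0.230 to 20.1 ± 0.182 FPKM (SD, n = 4, log2 difference 0.23, SE 0.034, adjusted p = 4.59e-05). In all 28 genes were tested, 5 rose (17.9%, against 6.26% of all entries) and 4 fell (14.3%, against 3.22%), and median-ratio scaling made this 3 and 6. The count of rises was 3 without any 1 of replicates 1, 2 and 3 at 3 h or 2 and 4 at 6 h.

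Of 20 circadian clock genes 3 rose (15%, against 6.26% of all entries) and 1 fell (5%, against 3.22%). CIART (chr1:150254953-150259505), a repressor of the clock, held 6.75, 6.64, 6.79 and 6.64 FPKM at 3 h and 8.40, 8.83, 8.96 and 8.98 FPKM at 6 h (log2 difference 0.35, SE 0.052, adjusted p = 6.95e-05), with no overlap. BHLHE41, a repressor that binds the same sites as CLOCK, rose from 10.7 ± 0.380 to 12.9 ± 0.280 FPKM (SD, n = 4, log2 difference 0.24, SE 0.029, adjusted p = 4.2e-06), HLF, a clock output factor, rose by 0.092, a call lost in 4 of the 8 fits that left out 1 sample, and PER3 fell by 0.13 on the log2 scale (adjusted p = 0.00321 and 0.00102). Under median-ratio scaling the list had 2 higher and 2 lower. The core activators CLOCK (-0.072) and ARNTL (0.00067) and the repressors PER1 (0.12) and NR1D1 (0.13) were not called, log2 differences in brackets. Of the 3 clock genes called higher, CIART and BHLHE41 hold CACGTG, the E-box that CLOCK and ARNTL bind, within 250 bases before their starts. HLF and PER3 do not. CACGTG was held by 6.49% of all windows and 9.41% of those of genes tested. It was also held by 2 of 8 hypoxia-inducible genes that rose, ANKRD37 and BNIP3.

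Sterol and lipid genes were called in both directions in vehicle, with shares to be read against the 6.26% of all entries called higher and the 3.22% called lower. Of 22 cholesterol biosynthesis genes 4 rose (18.2%, FDPS, FDFT1, TM7SF2 and HSD17B7) and 2 fell (9.09%, MSMO1 and SC5D), with a median log2 difference of 0.053. The 4 became 2 without replicate 4 at 3 h or replicate 2 at 6 h, and the 2 became 1 in 5 of the 8 fits that left out 1 sample. INSIG1, which retains the SREBP escort protein, fell from 45.2 ± 1.56 to 40.3 ± 0.658 FPKM (SD, n = 4, log2 difference -0.16, SE 0.033, adjusted p = 0.00126). Fatty acid synthesis had 4 of 16 genes higher (25%, ACLY, ACACA, ACACB and ACSS2), which became 2 under median-ratio scaling and in 5 of the 8 fits that left out 1 sample. Among 77 cytosolic ribosomal protein genes 7 rose (9.09%) and RPL39 fell. Under median-ratio scaling 2 rose, in each fit that left out 1 sample 2 or 3 rose, and 1 of the 7 held in all 8 of these. Of 75 respiratory chain genes 2 rose and 1 fell, neither rise holding in all 8, and of 24 NFE2L2 targets 1 rose and 1 fell. Of 11 genes of ethanol and aldehyde metabolism, ALDH2 and ACSS2 rose, and neither kept its call in all 8 fits that left out 1 sample. Of 20 genes of catecholamine synthesis and secretory granules 2 rose (10%, the granule proteins CHGA and CHGB) and 1 fell (5%). CHGA and CHGB were also the 2 called of 12 neuroblastoma markers, of which 10 were not called. CHGA went from 461 ± 14.3 to 557 ± 4.74 FPKM (SD, n = 4, log2 difference 0.27, SE 0.063, adjusted p = 0.00366). The CHGA and CHGB calls were each lost in at least 1 fit without a sample. SLC6A2, the noradrenaline transporter, fell from 3.55 ± 0.0583 to 2.88 ± 0.0241 FPKM (SD, n = 4, log2 difference -0.23, SE 0.036, adjusted p = 0.00011).

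The later vehicle samples show which early changes went on. The comparison of 12 h with 6 h shares the 6 h samples with the one above, so the values are set side by side. It called 4.87% of entries, and that of 24 h with 12 h called 39.4%. HSPA1A stood at 6.05, 9.94, 7.77 and 5.11 mean FPKM at 3, 6, 12 and 24 h, and it fell between 6 h and 12 h (log2 difference -0.32, adjusted p = 2.36e-05) and between 12 h and 24 h (-0.52, adjusted p = 4.05e-10). HSPA5 stood at 62.7, 90.5, 80.2 and 50.3 mean FPKM, with a fall between 12 h and 24 h (log2 difference -0.66, adjusted p = 1.94e-11). The mean of both chaperones was highest at 6 h, although the lower HSPA5 at 12 h was not called (log2 difference -0.17, adjusted p = 0.0131).

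SLC16A3 kept rising, from 3.44 mean FPKM at 6 h to 6.02 at 12 h and 16.5 at 24 h (log2 differences 0.69 and 1.31, adjusted p = 0.000659 and 4.13e-09). H19 reached 148 mean FPKM at 24 h, with a log2 difference of 1.07 from 12 h (adjusted p = 1.32e-10). ID2 kept falling, to 36.0 and 23.8 mean FPKM (log2 differences -0.45 and -0.57, adjusted p = 0.000331 and 7.51e-07), and ID3 did the same (-0.47 and -0.58, adjusted p = 0.000483 and 2.02e-06). Over the hypoxia list 9 of 22 rose and none fell between 6 h and 12 h, against 3.22% of all entries called higher there, and 16 rose and none fell between 12 h and 24 h, against 16.0%. Of the chaperones, none rose and 3 of 19 fell between 6 h and 12 h (background 1.65% lower), and 10 fell between 12 h and 24 h (23.5% lower).

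**Figure D4:**
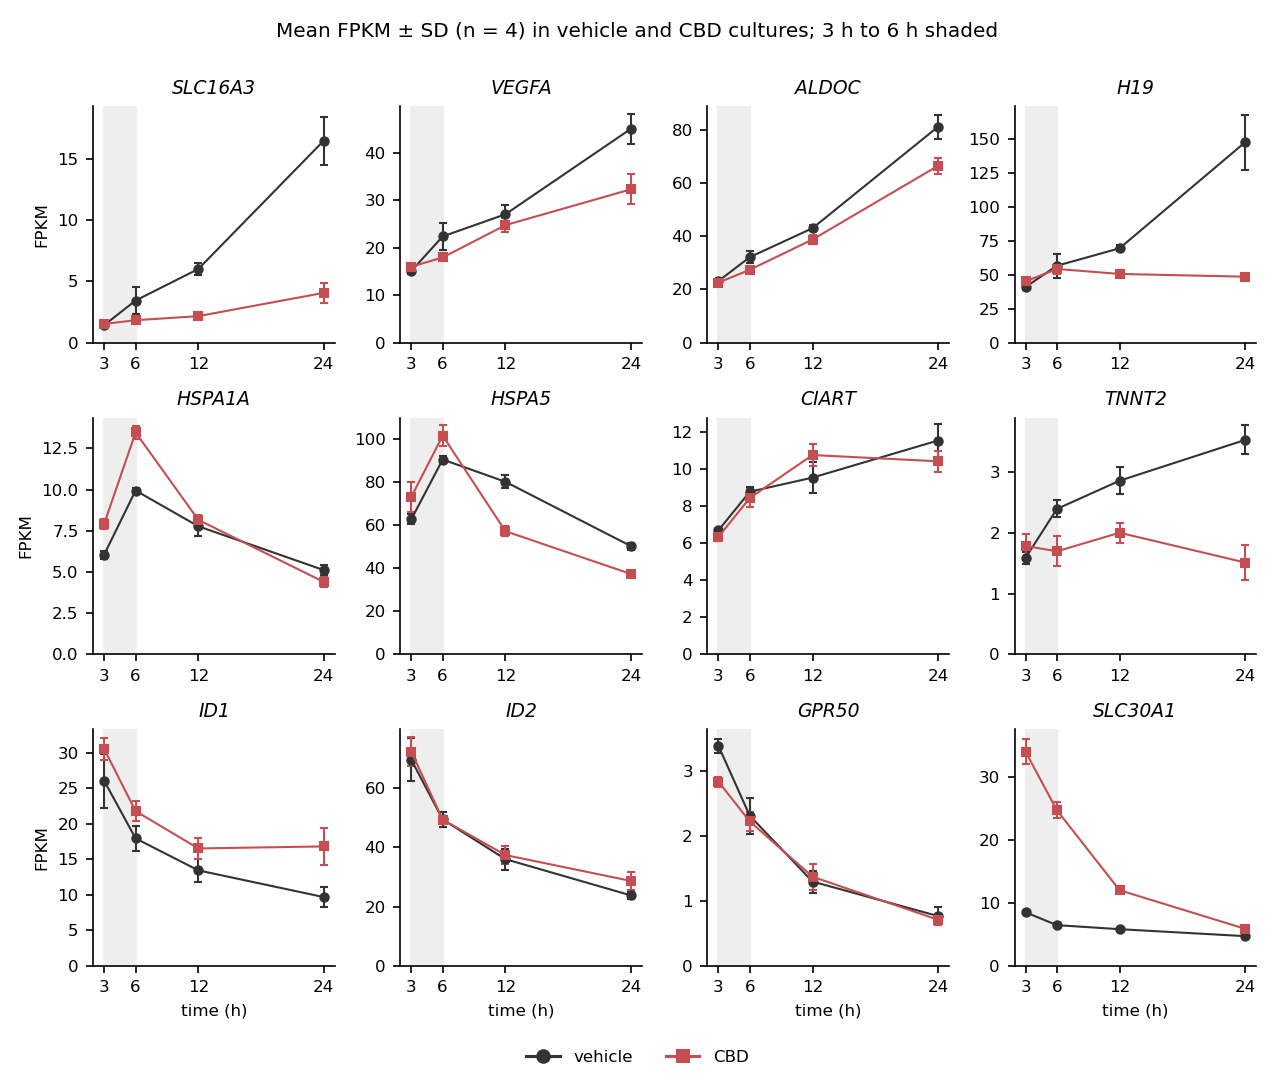
Mean FPKM ± SD (n = 4) over 3, 6, 12 and 24 h for 12 genes in vehicle (black circles) and CBD (red squares), with 3 h to 6 h shaded. In vehicle SLC16A3, VEGFA, ALDOC and H19 climb to 24 h, HSPA1A and HSPA5 peak at 6 h, and ID1, ID2, GPR50 and SLC30A1 decline.

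To ask whether the change was the same in the presence of CBD, the 3 h to 6 h change in vehicle was tested against that in CBD cultures of the same times, which share no sample with it. The difference was called for 265 entries (2.10%), of which 89 (0.705%) changed more upward with CBD and 176 (1.39%) more downward. The count was 602 without CBD replicate 1 and 152 without CBD replicate 2 at 3 h, 157 without CBD replicate 3 and 415 without CBD replicate 4 at 6 h, and 174 without vehicle replicate 2 at 3 h. CBD cultures had 1385 called entries between 3 h and 6 h (11.0%, with 6.08% higher and 4.90% lower). Of the 1196 entries called in vehicle, 989 had the same sign with CBD, 407 were also called there in the same direction and 22 in the opposite one. The share with the same sign over all entries was not taken, so the 989 are not read as agreement. These 407 are 34.0% of the vehicle calls and 29.4% of the CBD calls. The median change of the entries called higher in vehicle was 0.16 in vehicle and 0.080 with CBD, and of those called lower -0.14 and -0.084, where the vehicle values were those that chose the entries.

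**Figure D5:**
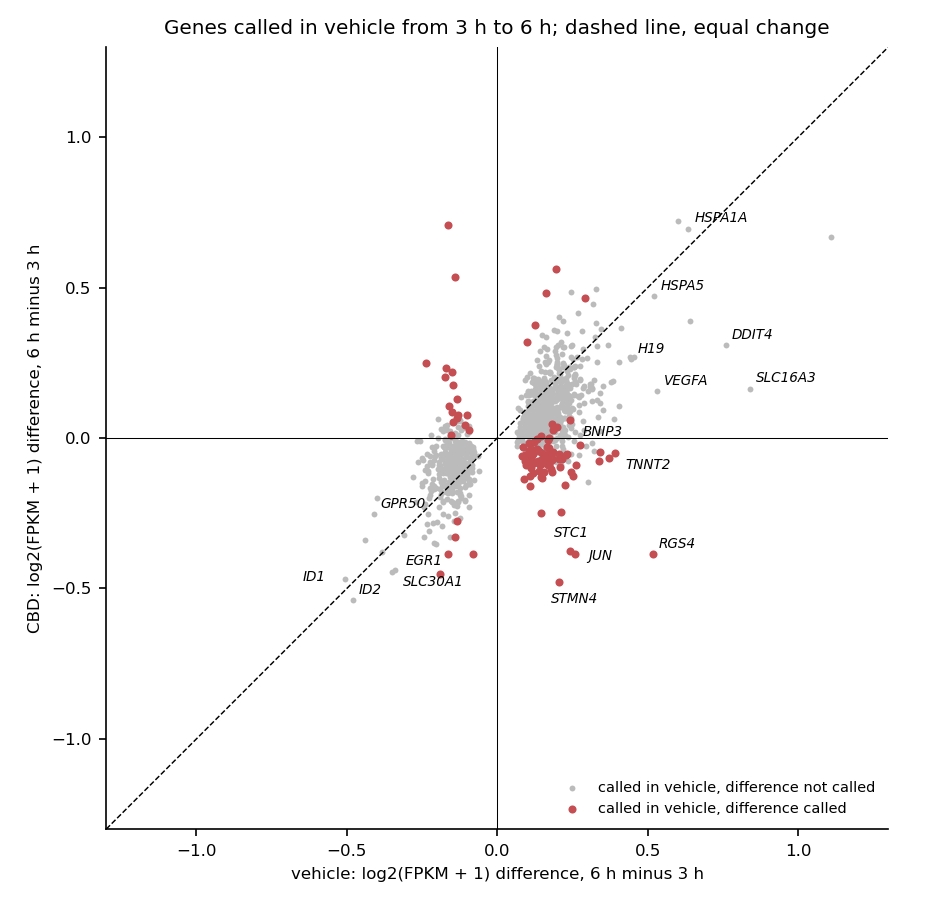
Each point is 1 of the 1196 entries called in vehicle, with the log2(FPKM + 1) difference, 6 h minus 3 h, in vehicle on the x axis and in CBD cultures on the y axis. Red points are the 108 for which the difference between the treatments was also called, and the dashed line marks equal change. HSPA1A, HSPA5, ID1 and ID2 lie near the line, while RGS4, JUN, STC1 and STMN4 lie below 0 with CBD.

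The chaperone and ID genes had similar values with and without CBD. HSPA1A had a log2 difference of 0.63 in vehicle and 0.70 with CBD, and the difference between them was 0.062 (SE 0.061, adjusted p = 0.626). HSPA5 had 0.52 and 0.47 (difference -0.050, SE 0.064, adjusted p = 0.719), and ID2 had -0.48 and -0.54 (difference -0.058, SE 0.11, adjusted p = 0.822). With CBD 7 of 19 chaperones and 10 of 21 unfolded protein response genes rose, against 6.08% of all entries, and ID1, ID2, ID3 and SMAD9 fell. No member of these lists was called for a difference, which does not show that the changes were equal.

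For the hypoxia and glycolytic genes the values lay further apart. With CBD 3 of 22 hypoxia-inducible genes rose and 3 fell, with a median of 0.014 against 0.19 in vehicle, and 1 of 23 glycolytic genes rose and 1 fell. With CBD 6.08% of all entries were called higher and 4.90% lower. The difference, CBD minus vehicle, was called below 0 for BNIP3, KDM3A and STC1 in the hypoxia list and for HK1 and PKM in the glycolytic list. Over all entries 1.39% were called so. Of these 5 genes, STC1 alone was called lower from 3 h to 6 h within the CBD cultures. BNIP3 had 0.34 in vehicle and -0.048 with CBD (difference -0.39, SE 0.086, adjusted p = 0.00712), a call lost in 12 of the 16 fits that left out 1 sample (adjusted p up to 0.0197 there), and the KDM3A call was lost in 11 of them (up to 0.0173). SLC16A3 and VEGFA, at differences of -0.67 and -0.38, did not pass (adjusted p = 0.0227 and 0.0231).

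RGS4 had the largest difference downward. It rose by 0.52 in vehicle and fell by 0.39 on the log2 scale with CBD, where it ranged from 43.5 to 46.1 FPKM at 3 h and from 33.6 to 34.3 FPKM at 6 h (difference -0.90, SE 0.11, adjusted p = 1.1e-05). SH2D3C, a signalling adaptor, STMN4, a neuronal microtubule regulator, and JUN followed, with differences of -0.72, -0.68 and -0.64 (adjusted p = 5.44e-07, 1.28e-09 and 6.14e-06). STC1, a secreted glycoprotein, differed by -0.62 and the zinc importer SLC39A10 by -0.60 (adjusted p = 2.8e-05 and 5.44e-07). SLC39A10 and SH2D3C were not called in vehicle itself (log2 differences 0.072 and 0.14).

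The largest differences upward were those of the metallothioneins, small proteins that bind zinc and copper. MT1X ranged from 7.76 to 10.0 FPKM in vehicle at 3 h and from 7.22 to 7.59 FPKM at 6 h, and with CBD from 49.8 to 88.4 FPKM and from 149 to 350.1 FPKM (difference 1.78, SE 0.26, adjusted p = 6.8e-05). MT1E, MT1F, MT1G, MT1H and MT1M had vehicle means under 1 FPKM at both times, so that the size of their values depends on the pseudocount, and their changes differed by 2.14, 1.82, 2.23, 2.23 and 1.89. These genes are close copies of one another, so reads may have been divided among them and their separate values are uncertain. The MT1E, MT1F and MT1M calls were lost under at least 1 alternative setting. In vehicle the metal response list had 2 of 9 genes lower (22.2%, SLC30A1 and MTF1, against 3.22% of all entries) and none higher. Cholesterol biosynthesis, with 4 of 22 higher in vehicle, had 19 of 22 higher with CBD, against 6.08% of all entries. Of these 22 genes 13 were called for a more upward change with CBD, against 0.705% of all entries.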

How the data were processed

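Polyadenylated RNA of SK-N-BE(2) cells was sequenced as single reads. Per the labels and the study's methods, Trimmomatic 0.36 was used for trimming, TopHat for alignment (build hg19) and Cufflinks for FPKM, one value per entry in each sample. The table deposited by the authors holds these FPKM for 22610 entries and 32 samples, with no read numbers. A second deposited table, of fold changes and q values for CBD against vehicle, holds the authors' own comparisons and was not used. FPKM give no absolute depth, so intervals for counting error could not be given, and relative depth was read from the steps between low values.

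Entries with a mean of at least 1 FPKM over the 32 samples were tested in limma 3.58.1 (R 4.3.3) on log2(FPKM + 1), a scale that understates changes of low genes, with 8 groups and a trended prior. The contrasts were 6 h minus 3 h in vehicle and the same change with CBD minus that in vehicle, called at a Benjamini-Hochberg adjusted p under 0.01. Genes were named as the 15 largest rises and 15 largest falls among called genes whose samples did not overlap (short RNA and LOC entries left out), the 6 largest differences each way, and members of 39 gene lists. The members and lists were chosen with earlier results of these data known. Only FPKM from Cufflinks were at hand, so reads shared by near-identical copies or overlapping genes may be divided unevenly. The scripts were tested on simulated data.

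Gene positions are from a GENCODE annotation on GRCh37 (hg19), and promoter windows of 250 bases from RefSeq were placed by exact match to that genome. The replicate numbers were checked as a pairing of 3 h and 6 h samples. The alternatives were the pseudocount, the filter, median-ratio and quantile scaling, the samples in the fit, the prior, a replicate block, a GC and length correction and leaving out each replicate.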

Additional observations from a re-analysis of the deposited data

Results flagged for a closer look

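Of 60 groups of 4 samples checked for a sample apart from the rest, 4 held one, and chance alone flags about 1 in 20 groups. HSPA5 in vehicle at 3 h was 59.4 FPKM in replicate 2 against 63.5 to 64.3 FPKM in the others. ID2 in vehicle at 6 h was 53.4 FPKM in replicate 1 against 47.8 to 48.3 FPKM. SLC30A1 was 8.78 FPKM in replicate 1 at 3 h against 8.37 to 8.42 FPKM, and 6.99 FPKM in replicate 2 at 6 h against 6.25 to 6.33 FPKM. In all 4 cases the 3 h and 6 h samples still did not overlap.

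The 3 h to 6 h change differed between CBD and vehicle for 265 entries (limma, adjusted p under 0.01). The differences, CBD minus vehicle on the log2 scale, were 2.23 for MT1G, 2.23 for MT1H, 2.14 for MT1E, 1.89 for MT1M, 1.82 for MT1F and 1.78 for MT1X. They were -0.90 for RGS4, -0.72 for SH2D3C, -0.68 for STMN4, -0.64 for JUN, -0.62 for STC1 and -0.60 for SLC39A10. TNNT2, among the largest rises in vehicle, had a difference of -0.44.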

How the results depend on the processing

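No called value of a named gene or list member changed direction under any alternative run, and 238 of the 1196 calls in vehicle held under every alternative that tested the entry. With only the groups of each comparison fitted, 391 entries were called in vehicle (297 higher, 94 lower) and 118 for the difference between CBD and vehicle (57 and 61). Median-ratio scaling gave 512 higher and 744 lower in vehicle, and quantile normalization gave 110 lower for the difference. A GC and length correction, chosen after seeing the data, gave 757 lower in vehicle and 173 higher for the difference. The cause of these shifts was not tested.

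Leaving out 1 sample gave 743 to 981 calls in vehicle (512 to 641 higher, 231 to 357 lower). The low end came without replicate 2 at 3 h (743, with 512 higher and 231 lower), and calls lower were 268 without replicate 1 at 3 h and 246 without replicate 1 at 6 h. For the difference it gave 152 to 602 calls (64 to 152 higher, 88 to 450 lower). The count was 602 without CBD replicate 1 at 3 h (152 higher, 450 lower), 415 without CBD replicate 4 at 6 h (296 lower), 152 without CBD replicate 2 at 3 h (88 lower), 157 without CBD replicate 3 at 6 h (92 lower) and 174 without vehicle replicate 2 at 3 h (102 lower). Without CBD replicate 3 at 3 h 117 were lower, and without CBD replicate 2 at 6 h 113.

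Of 236 called values of named genes, 140 lost their call with only the groups of each comparison fitted, 43 of 233 with the GC and length correction, 42 with quantile normalization, 37 with median-ratio scaling, 30 without the filter, and 37 to 74 when a vehicle sample was left out. The replicate numbers gave no clear pairing of the samples, though a weak one was not excluded. Deviations of 3 h and 6 h samples with the same number correlated at 0.0134 to 0.0868, and those with other numbers at -0.0664 to 0.0571. Of the 4 numbers, 2 correlated best with their own. A replicate block gave 1398 calls in vehicle (921 higher, 477 lower) and 306 for the difference (106 and 200), and 7 named calls were lost under it. Read depth in absolute terms is unknown, which limits what can be said of genes near 1 FPKM.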

Other observations

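Some gene groups not described above moved in part. Of 17 p53 targets 3 were lower at 6 h in vehicle, the ubiquitin ligase MDM2, TP53INP1 and ZMAT3, and 1 was higher, the repair factor XPC. The count lower was 1 without any 1 of replicates 2 and 4 at 3 h or 1, 2 and 3 at 6 h, and 1 of the 3 held in all 8 fits that left out 1 sample. Of 9 arrestins and targets of the glucose sensor MLXIPL 3 were higher and none lower, TXNIP, ARRDC2 and KLF10. SOX4 and the receptor kinase ALK were 2 of 20 adrenergic identity factors higher, with none lower. The 12 replication-dependent histone genes tested had a median log2 difference of 0.17 with none called, and polyA-selected RNA measures such transcripts poorly. Of 16 integrin and matrix adhesion genes 3 were higher (ITGB3, TLN1, FLNC), 1 under median-ratio scaling and in 7 of the 8 fits that left out 1 sample. The shares over all entries were 6.26% higher and 3.22% lower.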
